A study of Oryzias latipes with 8 samples.

Results

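Neurotransmitter receptors are the proteins through which a neuron detects the signals of other cells, and their genes were followed here across 3 sorted cell populations of the medaka optic tectum, the dorsal midbrain region that receives input from the retina. A gene was counted as a member when the symbol that the authors gave it in their sheets of changed genes named a receptor for glutamate, GABA, glycine, acetylcholine, serotonin, dopamine, noradrenaline and adrenaline, cannabinoids or opioids. This rule found 68 genes among the 4662 that carry a symbol and the 15640 that were tested. Of these, 67 are receptors, and the other, grid2ipa, matched by name only, since it encodes a protein that binds a delta glutamate receptor. All 68 are listed in the count table of every library and passed the filter on low counts. Symbols were at hand only for genes that the authors listed as changed in at least 1 comparison, so receptors that did not differ are missing from the set, and the counts of differing members below are not independent evidence that receptors differ. Genes could be listed in either direction. With wdr12 GFP-negative cells as the control, the sheets hold 1532 genes with a symbol that were higher in wdr12 GFP-positive cells and 1593 that were lower. With the ebf3 sort as the control, they hold 1753 and 1401. Of the members, 0 were listed as higher in wdr12 GFP-positive cells. As lower, 27 were listed against 1 of these controls, 39 against both and 2 against neither. Where a member was listed as lower, its direction below restates that listing in the same data.

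The cells came from fish aged 1 month, from tecta dissected in batches of 30, dissociated and sorted by GFP fluorescence. In the Wdr12:GFP line the promoter of wdr12, a ribosome biogenesis factor expressed in the neuroepithelial cells of the tectum, drives GFP, and sorting gave wdr12 GFP-positive cells (n = 3 libraries) and wdr12 GFP-negative cells (n = 2), called GFP-negative below. The negative sort is described as mixed, holding transit-amplifying progenitors, neurons that have left the cell cycle, and glia. In the ebf3:GFP line, used as a further control, GFP is described as marking post-mitotic progenitors and differentiated neurons, and its GFP-positive cells were used (n = 3). The labels do not say that replicates are separate pools of fish, so the p-values below measure the spread between libraries, which may be technical.

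Receptors fall into those that are themselves ion channels, which act fast, and those that act through G proteins, which are slower and modulate the cell. Glutamate is the main excitatory transmitter of the vertebrate brain and acts on AMPA, kainate, NMDA and delta receptors, which are channels or are built like them, and on metabotropic receptors. GABA and glycine open chloride channels and usually inhibit mature neurons. Acetylcholine, the monoamines, cannabinoids and opioids tune these circuits. Neuroepithelial cells divide and form no synapses. Fish often carry duplicate copies of a mammalian receptor gene, written here with a last letter or with a copy number such as "1 of 2"; where copies are nearly identical, reads could be split between them.

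Libraries held between 3497101 and 11580629 counts, with the fewest in the GFP-negative sort. Levels are TMM-scaled CPM, the count of a gene set against the total of its library, listed by replicate, and compare 1 gene across libraries; gene lengths were not used, so levels are not compared between genes. In a library where a gene has no count, up to 0.325 to 0.65 CPM is allowed by 3 counts, depending on the library, for counting error only. The labelled sorts were checked against marker genes: all 13 proliferating progenitor markers were higher in wdr12 GFP-positive cells than in either control, and of 14 mature neuron markers 13 were lower than in the GFP-negative and 12 lower than in the ebf3 GFP-positive sort. Of the mature neuron markers elavl3 was called lower against neither control. Transcripts of the 3 genes listed as plasma proteins, apoa1b, apoa2 and tfa, summed to between 24440.0 and 106929 CPM in wdr12 GFP-positive cells. Erythrocyte transcripts summed to 26770.1 and 135749 CPM in the GFP-negative libraries and to at most 868 CPM elsewhere. Against ebf3 cells, wdr12 GFP-positive cells were also higher in markers of other cell types: 5 of 5 for microglia and leukocytes (386 to 627 against 50.0 to 117 CPM), 5 of 7 for the oligodendrocyte lineage (620 to 1280 against 198 to 780.2 CPM), 6 of 9, with 2 lower, for radial glia and astroglia (5701 to 13031 against 3089 to 3256 CPM) and 4 of 5, with 1 lower, for endothelium and mural cells (157 to 251 against 101 to 103 CPM). Against GFP-negative cells those 4 lists had 0, 1, 0 and 1 genes higher and 0, 2, 2 and 1 lower. The part of any of these in the results was not tested.

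Receptor transcripts were low in wdr12 GFP-positive cells. Of the 67 receptor genes, 56 were lower than in the GFP-negative sort and 0 were higher, and 43 were lower than in ebf3 GFP-positive cells with 0 higher (edgeR quasi-likelihood test, adjusted p under 0.05). Among all genes tested, 9.84% were lower and 9.92% higher in the first comparison, and 10.8% were lower and 12.7% higher in the second. Among tested genes with a symbol, to which the members belong, 30.7% were lower and 29.9% higher, then 31.8% lower and 37.9% higher. At an unadjusted p under 0.05, 0 receptors were higher in either comparison, a threshold for which no share over all genes was computed. DESeq2 also called 0 higher, where 2004 and 2308 of 15640 genes tested were higher. The members come from the authors' lists of changed genes in the same data, so this is no separate support. The median log2 fold change of the receptors was -2.68 against GFP-negative and -1.97 against ebf3 GFP-positive cells, where genes with a symbol had medians of 0.31 and 0.28. The 14 mature neuron markers had medians of -2.71 and -1.96, so a shift of this size was not particular to receptors. These comparisons share the wdr12 GFP-positive libraries. Both called 40 receptors lower, 16 were lower only against the GFP-negative sort, 3 only against the ebf3 sort and 8 against neither. All wdr12 GFP-positive libraries lay below both GFP-negative libraries for 64 receptors and above them for 1, against 24.5% and 25.4% of all genes tested, and below all ebf3 libraries for 52 and above them for 0, against 17.8% and 19.9%. They lay below all 5 control libraries for 50 of 67 receptors, against 12.8% of all genes tested. These shares of libraries that do not overlap were not computed for genes with a symbol, from which the members come. The members described below were picked by class from the smallest adjusted p and the most counts, and gria3b, the grin1 and GRIK5 copies, grin2db, grm3, GRM2 (1 of 2), gabra5, GABRP, gabrr2a and chrna6 (2 of 2) were added after their values had been seen. In bulk samples such as these, fewer cells that express a receptor and less receptor RNA per cell cannot be told apart.

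With each library left out in turn, between 39 and 59 of the 68 members were lower than in GFP-negative cells and between 37 and 51 lower than in ebf3 GFP-positive cells. The lowest counts against the GFP-negative sort came without its replicate 1 or 2. Each leaves that group a single library that is assumed to vary like the others. Fewer of all genes tested were also called lower there, which bears on the counts by class below. The median log2 fold change of the receptors there was -2.62 and -2.56. With any other library left out, 1401 of 15154 to 1832 of 15474 genes tested were lower than in GFP-negative cells. Against ebf3 cells 1251 of 15617 to 1852 of 15474 genes were lower. In all, 34 of 57 members called against the GFP-negative sort and 32 of 44 called against the ebf3 sort passed whichever library was left out.

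**Figure D1:**
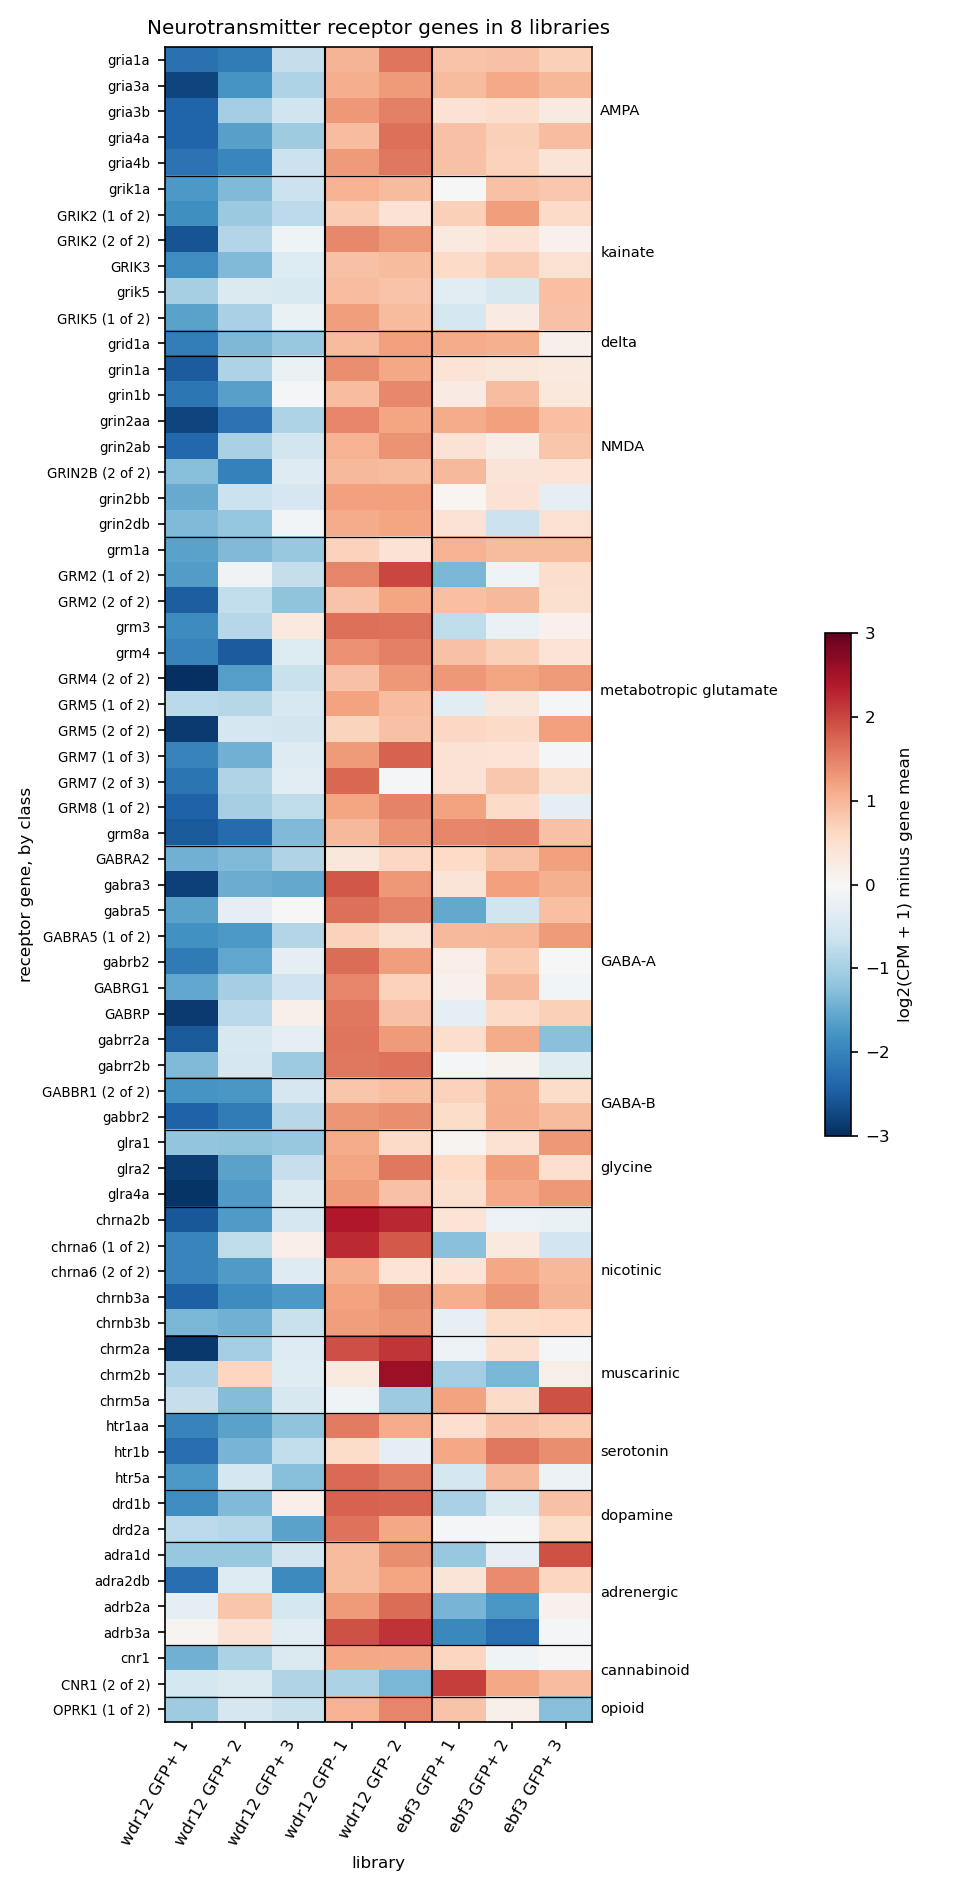
Levels of 65 receptor genes (rows, by class) in the 8 libraries (columns), as log2(CPM + 1) minus the mean of the gene over the libraries, with red above and blue below the gene's mean. The 3 wdr12 GFP-positive columns are blue for most genes, and the 4 genes whose mean is not lowest there are CNR1 (2 of 2), adrb2a, adrb3a and chrm2b.

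**Figure D2:**
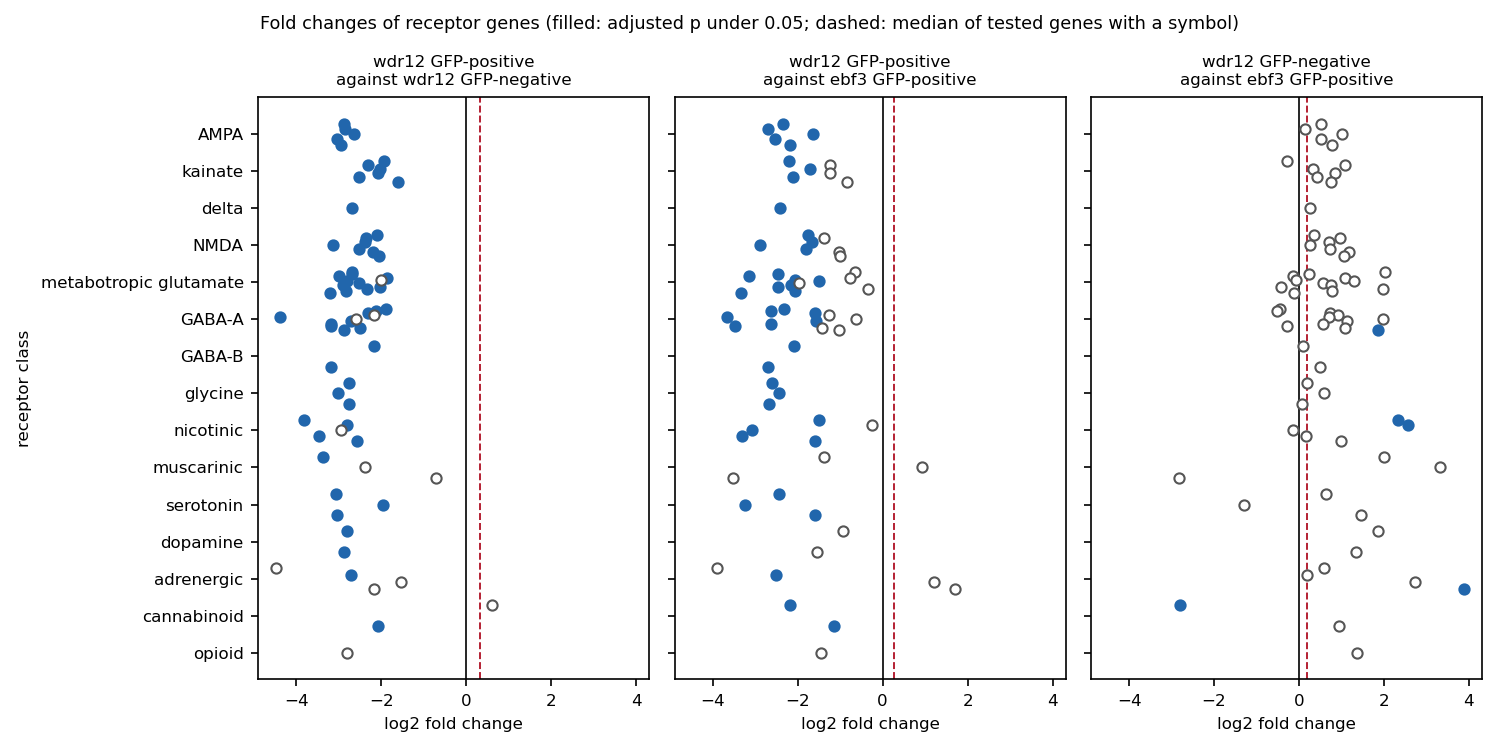
Log2 fold change of each receptor gene (points, by class) in the 3 comparisons, with filled points for an adjusted p under 0.05, a solid line at 0 and a dashed line at the median of tested genes with a symbol. Filled points in the first and second panels all lie left of 0, with 56 and 43 of them, and the third panel has 5.

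AMPA receptors carry most fast excitatory transmission, and all 5 of their subunit genes were lower in wdr12 GFP-positive cells than in either control. The subunit gene gria1a stood at 22.9, 25.3 and 68.2 CPM in the wdr12 GFP-positive libraries, 227 and 342 CPM in the GFP-negative libraries and 204, 205 and 184 CPM in the ebf3 GFP-positive libraries. The sorts of the Wdr12:GFP line did not overlap, and both control sorts lay far above the highest wdr12 GFP-positive library, which was replicate 3. Its log2 fold change was -2.88 (SE 0.42, adjusted p = 0.000257) against GFP-negative and -2.35 (SE 0.39, adjusted p = 0.000395) against ebf3 GFP-positive cells. For gria3a the levels were 11.9, 24.8 and 45.2 CPM in wdr12 GFP-positive libraries, 186 and 209.7 CPM in GFP-negative and 169, 191 and 174 CPM in ebf3 GFP-positive libraries. Its copy gria3b had 5.64, 16.1 and 22.3 CPM, 85.7 and 98.4 CPM and 46.0, 49.4 and 41.4 CPM in the same order. Both copies were lowest in wdr12 GFP-positive cells, but gria3a overlapped between the control sorts, whereas gria3b was higher in both GFP-negative libraries than in any ebf3 library. The log2 fold change between the control sorts was 0.15 (SE 0.41, adjusted p = 0.921) for gria3a and 1.01 (SE 0.42, adjusted p = 0.198) for gria3b, so neither passed. The subunit genes gria4a and gria4b, at 5.96, 10.7 and 16.5 CPM and 7.69, 9.34 and 24.4 CPM in wdr12 GFP-positive libraries, reached 69.0 and 114 CPM and 96.2 and 119 CPM in GFP-negative libraries. Log2 fold changes against that sort were -3.05 (SE 0.39, adjusted p = 0.000141) for gria4a and -2.96 (SE 0.43, adjusted p = 0.000251) for gria4b. Over the class they ran from -3.05 to -2.65 against GFP-negative and from -2.71 to -1.64 against ebf3 GFP-positive cells. Without wdr12 GFP-positive replicate 3 the log2 fold change against the GFP-negative sort was -3.61 for gria1a, -3.47 for gria3a and -3.70 for gria4b, and against the ebf3 sort it was -3.05 for gria1a and -2.89 for gria4b.

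Kainate receptors act at the synapse on both of its sides, and their 6 subunit genes were all lower than in GFP-negative cells, while 3 were lower than in ebf3 GFP-positive cells. The first count was 2 without GFP-negative replicate 1, and the second was 5 without wdr12 GFP-positive replicate 3. GRIK3, a channel-forming subunit gene, stood at 17.1, 25.4 and 48.6 CPM in wdr12 GFP-positive libraries, 122 and 127 CPM in GFP-negative and 97.2, 112 and 89.7 CPM in ebf3 GFP-positive libraries. Its groups did not overlap, and log2 fold change was -2.03 (SE 0.37, adjusted p = 0.00133) and -1.71 (SE 0.34, adjusted p = 0.00178). GRIK2 encodes another channel-forming subunit, in 2 copies. GRIK2 (1 of 2) had 3.90, 7.15 and 9.14 CPM in wdr12 GFP-positive libraries, 28.5 and 22.8 CPM in GFP-negative and 27.7, 40.9 and 25.0 CPM in ebf3 GFP-positive libraries. GRIK2 (2 of 2) had 3.25, 12.9 and 22.4 CPM, 67.4 and 60.1 CPM and 30.2, 33.4 and 26.8 CPM. The first copy overlapped between the controls, and the second was higher in both GFP-negative libraries than in any ebf3 library. Against ebf3 cells the first copy was lower, with a log2 fold change of -2.21 (SE 0.39, adjusted p = 0.000689), and the second did not pass, at -1.23 (SE 0.48, adjusted p = 0.0778). Against GFP-negative cells the values were -1.93 (SE 0.42, adjusted p = 0.00433) and -2.31 (SE 0.52, adjusted p = 0.00538); the first lost its call without GFP-negative replicate 1 (adjusted p = 0.0574), and the second was -3.02 without wdr12 GFP-positive replicate 3. For grik1a, log2 fold change was -2.53 (SE 0.57, adjusted p = 0.00555) and -2.11 (SE 0.53, adjusted p = 0.00845), and the former lost its call without GFP-negative replicate 1 (adjusted p = 0.0511). The copies of GRIK5, whose product needs a partner subunit to form a channel, were lower than in GFP-negative cells at -2.08 (SE 0.53, adjusted p = 0.0116) and -1.60 (SE 0.48, adjusted p = 0.0268), and neither call survived leaving out a GFP-negative library, nor that of grik5 leaving out wdr12 GFP-positive replicate 1. Against ebf3 cells they were at -1.24 and -0.83, and neither passed. The delta receptor gene grid1a, whose product links synapses through cerebellins, stood at 5.85, 10.4 and 12.2 CPM in wdr12 GFP-positive libraries, 55.0 and 67.1 CPM in GFP-negative and 61.3, 59.8 and 31.1 CPM in ebf3 libraries. All its wdr12 GFP-positive values were the lowest, and log2 fold change was -2.69 (SE 0.40, adjusted p = 0.00028) and -2.42 (SE 0.37, adjusted p = 0.000217).

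NMDA receptors detect coincident activity and pair the glycine-binding subunit encoded by grin1 with glutamate-binding subunits encoded by grin2 genes. All 7 genes were lower than in GFP-negative cells and 4 were lower than in ebf3 GFP-positive cells. The grin1 copies, needed in every such receptor, had 1.95, 7.84 and 13.6 CPM (grin1a) and 2.06, 3.46 and 12.2 CPM (grin1b) in wdr12 GFP-positive libraries. In GFP-negative libraries they had 43.3 and 36.2 CPM and 25.2 and 36.2 CPM, and in ebf3 libraries 21.4, 20.1 and 19.6 CPM and 15.2, 24.9 and 16.1 CPM. Neither copy's wdr12 GFP-positive libraries overlapped with a control, but only grin1b passed against ebf3 cells, at -1.67 (SE 0.54, adjusted p = 0.0356), with grin1a at -1.39 (SE 0.50, adjusted p = 0.0564). That call of grin1b was lost without each library apart from ebf3 replicate 3 and wdr12 GFP-positive replicate 3, without which it was -2.77. Against GFP-negative cells grin1a was at -2.35 (SE 0.54, adjusted p = 0.00617) and lost its call without GFP-negative replicate 1 (adjusted p = 0.0579), and grin1b was at -2.39 (SE 0.59, adjusted p = 0.00934) and lost its call without GFP-negative replicate 2 (adjusted p = 0.0980); without wdr12 GFP-positive replicate 3 they were at -3.07 and -3.52. For grin2aa the levels were 13.9, 20.3 and 51.6 CPM in wdr12 GFP-positive libraries, 276 and 225 CPM in GFP-negative and 215, 232 and 185 CPM in ebf3 libraries. It had the greatest difference of the class in both comparisons, with log2 fold changes of -3.13 (SE 0.44, adjusted p = 0.000201) and -2.88 (SE 0.41, adjusted p = 0.000125); without wdr12 GFP-positive replicate 3 these were -3.93 and -3.63. Its copy grin2ab was also lower, at -2.53 and -1.81. The grin2b genes, whose mammalian counterpart prevails in the young brain, were GRIN2B (2 of 2) at 18.0, 10.2 and 33.8 CPM, 89.2 and 87.4 CPM and 88.7, 59.0 and 60.3 CPM, and grin2bb at 4.23, 8.42 and 9.39 CPM, 33.5 and 34.0 CPM and 14.3, 19.0 and 11.2 CPM. GRIN2B (2 of 2) overlapped between the controls and was lower in wdr12 GFP-positive cells against both, at -2.10 (SE 0.41, adjusted p = 0.00211) and -1.75 (SE 0.38, adjusted p = 0.00309); the first was -2.70 without wdr12 GFP-positive replicate 3. In contrast, grin2bb passed only against GFP-negative cells, at -2.20 (SE 0.43, adjusted p = 0.00223), with -1.02 (SE 0.40, adjusted p = 0.0814) against ebf3 cells. The remaining gene, grin2db, was at -2.05 (SE 0.51, adjusted p = 0.0105) against GFP-negative cells and did not pass against ebf3 cells. It lost its call without either GFP-negative library and was at -2.68 without wdr12 GFP-positive replicate 3.

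Metabotropic glutamate receptors, which act through G proteins, gave 12 genes, 11 of them lower than in GFP-negative and 8 lower than in ebf3 GFP-positive cells. Without GFP-negative replicate 2 the first count was 7, and without ebf3 replicate 1 the second was 5. The largest differences of the class in both comparisons came from grm8a, a receptor of the class that curbs transmitter release. Its levels were 11.4, 13.5 and 27.7 CPM in wdr12 GFP-positive libraries, 140.3 and 182 CPM in GFP-negative and 195, 201 and 129.7 CPM in ebf3 libraries. Every control library held over 4 times the highest wdr12 GFP-positive one. Log2 fold changes were -3.20 (SE 0.38, adjusted p = 8.82e-05) and -3.33 (SE 0.37, adjusted p = 2.06e-05). For grm4, of the same class, the levels were 15.4, 10.6 and 48.2 CPM, 168 and 186 CPM and 119, 106 and 85.9 CPM, with replicate 3 the highest wdr12 GFP-positive library. Its log2 fold change was -2.84 (SE 0.48, adjusted p = 0.000741) and -2.07 (SE 0.44, adjusted p = 0.00266), or -3.82 and -3.01 without wdr12 GFP-positive replicate 3. GRM7 (1 of 3) was lower at -2.80 (SE 0.46, adjusted p = 0.00056) and -1.50 (SE 0.42, adjusted p = 0.0153). Without wdr12 GFP-positive replicate 3 these were -3.49 and -2.15, and the call against ebf3 cells was lost without wdr12 GFP-positive replicate 2 (adjusted p = 0.0518) or ebf3 replicate 1 (0.0531). The gene grm1a, whose product raises intracellular calcium, had 6.29, 7.84 and 9.01 CPM, 34.6 and 28.7 CPM and 44.2, 41.6 and 41.4 CPM, so that the ebf3 libraries were the highest. On the log2 scale the fold change was -2.03 (SE 0.34, adjusted p = 0.000681) and -2.46 (SE 0.32, adjusted p = 6.21e-05). Both grm3 and GRM2 (1 of 2) encode receptors that lower cyclic AMP. For grm3, levels were 2.60, 6.34 and 15.2 CPM in wdr12 GFP-positive libraries, 40.5 and 40.0 CPM in GFP-negative and 6.75, 10.4 and 13.5 CPM in ebf3 libraries. The ebf3 libraries overlapped with the wdr12 GFP-positive ones, and both GFP-negative libraries stood above all others. Log2 fold change of grm3 was -2.33 (SE 0.56, adjusted p = 0.00836) against GFP-negative and -0.35 (SE 0.52, adjusted p = 0.715) against ebf3 cells, with 1.98 (SE 0.56, adjusted p = 0.0547) between the controls. Its call was lost without either GFP-negative library, and it was at -3.21 without wdr12 GFP-positive replicate 3. GRM2 (1 of 2) likewise overlapped between wdr12 GFP-positive and ebf3 libraries, with log2 fold changes of -2.68, -0.65 and 2.03 in the same order. Only the first passed, and leaving out GFP-negative replicate 2 ended it (adjusted p = 0.0856); its value was -3.29 without wdr12 GFP-positive replicate 2.

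GABA-A receptors are the main inhibitory channels of the brain, each built of several subunit kinds. Of 11 subunit genes, 9 were lower than in GFP-negative and 7 lower than in ebf3 GFP-positive cells. Alpha subunits help to set how the receptor responds to GABA and to drugs. GABRA2 had 3.79, 4.27 and 6.05 CPM in wdr12 GFP-positive libraries, 15.7 and 19.2 CPM in GFP-negative and 18.7, 22.6 and 29.8 CPM in ebf3 libraries, and GABRA5 (1 of 2) had 6.50, 6.92 and 13.3 CPM, 41.6 and 35.7 CPM and 51.0, 51.1 and 62.6 CPM. In both the lowest libraries were the wdr12 GFP-positive ones. GABRA5 (1 of 2) was lower at -2.12 (SE 0.37, adjusted p = 0.000949) and -2.63 (SE 0.35, adjusted p = 7.46e-05). GABRA2 was lower at -1.89 (SE 0.42, adjusted p = 0.00514), and at -2.33 (SE 0.40, adjusted p = 0.000491). Leaving out GFP-negative replicate 2 ended the first call (adjusted p = 0.0668). The other GABRA5-like gene, gabra5, passed in no comparison and had 0.276, 1.47 and 5.99 CPM in the ebf3 libraries against 10.7 and 9.45 CPM in the GFP-negative ones. GABRP, which encodes the pi subunit, was at -2.18 and -1.26 and did not pass either. The genes gabrr2a and gabrr2b, whose subunits form GABA-gated channels best known from the vertebrate retina, were lower only against GFP-negative cells, at -2.51 (SE 0.79, adjusted p = 0.0342) and -2.87 (SE 0.52, adjusted p = 0.0012). The call of gabrr2a was lost without either GFP-negative library or without wdr12 GFP-positive replicate 2 (adjusted p = 0.0514).

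The metabotropic GABA-B receptor needs both of its subunits, and both genes were lower. GABBR1 (2 of 2), which encodes the subunit that binds GABA, had 7.59, 7.61 and 19.6 CPM in wdr12 GFP-positive libraries, 50.7 and 53.6 CPM in GFP-negative and 45.9, 59.5 and 41.4 CPM in ebf3 libraries. For gabbr2, which encodes the subunit that couples to the G protein, the levels were 2.82, 3.81 and 10.4 CPM, 50.5 and 53.1 CPM and 28.9, 42.5 and 38.6 CPM. Neither gene's wdr12 GFP-positive libraries reached a control. On the log2 scale the fold change was -2.17 (SE 0.41, adjusted p = 0.00172) and -2.08 (SE 0.38, adjusted p = 0.000937) for GABBR1 (2 of 2), and -3.19 (SE 0.47, adjusted p = 0.000291) and -2.70 (SE 0.44, adjusted p = 0.000371) for gabbr2. Without wdr12 GFP-positive replicate 3 these became -2.83 and -2.70 for the former, and -4.01 and -3.48 for the latter.

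All 3 glycine receptor alpha subunit genes were lower against both controls. The levels of glra2, whose mammalian counterpart is the fetal form, were 2.49, 7.15 and 14.5 CPM in wdr12 GFP-positive libraries, 56.1 and 74.0 CPM in GFP-negative and 36.9, 58.2 and 34.6 CPM in ebf3 libraries. For glra4a they were 0.542, 2.65 and 7.72 CPM, 27.6 and 21.0 CPM and 15.4, 25.3 and 28.5 CPM, and for glra1, the adult form in mammals, 1.08, 1.04 and 1.16 CPM, 9.14 and 6.01 CPM and 4.00, 5.48 and 10.7 CPM. No wdr12 GFP-positive library reached a control library in any of the 3, and the control sorts overlapped in all. Log2 fold change of glra2 was -3.02 (SE 0.52, adjusted p = 0.000873) and -2.43 (SE 0.48, adjusted p = 0.00165), and without wdr12 GFP-positive replicate 3 it was -3.80 and -3.17. For glra4a it was -2.75 (SE 0.67, adjusted p = 0.00909) and -2.67 (SE 0.63, adjusted p = 0.0056), or -3.97 and -3.85 without that replicate. For glra1 it was -2.77 (SE 0.73, adjusted p = 0.0137) and -2.60 (SE 0.68, adjusted p = 0.0111). The calls of the scarcer genes leaned on single libraries: glra1 lost its first call without GFP-negative replicate 1 (adjusted p = 0.146) or 2 (0.0514) and its second without ebf3 replicate 3 (0.0534), and glra4a lost its first without GFP-negative replicate 1 (0.0740).

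Nicotinic acetylcholine receptors are cation channels, and in mammals the alpha6 and beta3 subunits are known from retinal ganglion cells and their endings. Of 5 subunit genes, 4 were lower than in GFP-negative cells and 4 lower than in ebf3 GFP-positive cells. The second count was 2 without wdr12 GFP-positive replicate 2 or ebf3 replicate 1. The beta3 gene chrnb3a had 4.88, 7.61 and 8.75 CPM in wdr12 GFP-positive libraries, 72.9 and 83.3 CPM in GFP-negative and 67.1, 79.4 and 63.8 CPM in ebf3 libraries. The 5 control libraries lay close together and every one was over 7 times the highest wdr12 GFP-positive library. Its log2 fold changes, -3.46 (SE 0.34, adjusted p = 3.91e-05) and -3.31 (SE 0.32, adjusted p = 1.19e-05), had the smallest adjusted p of all members in both comparisons. Its copy chrnb3b was lower by less, at -2.58 (SE 0.42, adjusted p = 0.000557) and -1.60 (SE 0.39, adjusted p = 0.00616). The alpha2 gene chrna2b had 3.47, 6.92 and 17.4 CPM, 135 and 124 CPM and 33.6, 22.1 and 21.6 CPM. Its GFP-negative libraries stood far above both other sorts. Log2 fold change of chrna2b was -3.81 (SE 0.50, adjusted p = 0.000151) against GFP-negative and -1.49 (SE 0.45, adjusted p = 0.0244) against ebf3 cells, or -4.69 and -2.32 without wdr12 GFP-positive replicate 3. The second call was lost without wdr12 GFP-positive replicate 2 (adjusted p = 0.0773) or ebf3 replicate 1 (0.108). The copies of chrna6 had unlike patterns. For chrna6 (1 of 2) the levels were 1.84, 5.65 and 12.0 CPM in wdr12 GFP-positive libraries, 52.2 and 39.0 CPM in GFP-negative and 3.72, 12.8 and 6.49 CPM in ebf3 libraries, and for chrna6 (2 of 2) they were 0, 0.231 and 2.06 CPM, 7.40 and 4.29 CPM and 4.27, 7.89 and 6.99 CPM. The first copy was high in the GFP-negative sort alone, and the second overlapped between the controls. The first was lower against GFP-negative cells, at -2.82 (SE 0.63, adjusted p = 0.00495), and not against ebf3 cells, at -0.25 (SE 0.57, adjusted p = 0.824), while the second was lower against ebf3 cells at -3.07 (SE 1.05, adjusted p = 0.0452) and did not pass against GFP-negative cells at -2.94 (SE 1.11, adjusted p = 0.0772). Without GFP-negative replicate 1 the first copy lost its call (adjusted p = 0.0580), and without wdr12 GFP-positive replicate 3 it was at -3.65. The second copy lost its call without each library apart from wdr12 GFP-positive replicate 3, without which it was at -5.62.

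Muscarinic receptors are the G protein coupled branch of acetylcholine signalling, and only chrm2a passed among 3 genes, against GFP-negative cells; without wdr12 GFP-positive replicate 3 a single gene also passed against ebf3 cells. This inhibitory receptor's gene had 0.867, 5.88 and 9.65 CPM in wdr12 GFP-positive libraries, 52.0 and 60.6 CPM in GFP-negative and 11.4, 18.5 and 12.5 CPM in ebf3 libraries. All 3 sorts were apart, with the ebf3 libraries in between. Log2 fold changes were -3.37 (SE 0.61, adjusted p = 0.00129) against GFP-negative cells, or -4.10 without wdr12 GFP-positive replicate 3, and -1.38 (SE 0.56, adjusted p = 0.0923) against ebf3 cells. Its copy chrm2b reached 16.3 CPM in a single GFP-negative library and at most 3.58 CPM elsewhere, with log2 fold changes of -2.39 (SE 1.15, adjusted p = 0.177) and 0.93 (SE 1.10, adjusted p = 0.632). The excitatory type gene chrm5a had 0.542, 0 and 0.772 CPM, 1.31 and 0.172 CPM and 4.69, 2.67 and 8.32 CPM. Unlike most receptors it was highest in the ebf3 libraries, though its log2 fold change of -3.53 (SE 1.28, adjusted p = 0.0596) did not pass.

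Receptors for monoamines, which arrive in the tectum from distant nuclei, gave 9 genes. All 3 serotonin receptor genes, whose products are inhibitory, were lower against both controls. For htr1aa the levels were 5.64, 7.73 and 10.6 CPM in wdr12 GFP-positive libraries, 76.8 and 56.2 CPM in GFP-negative and 36.8, 46.8 and 44.9 CPM in ebf3 libraries. The wdr12 GFP-positive libraries were well below all others, and log2 fold change was -3.06 (SE 0.36, adjusted p = 7.72e-05) and -2.43 (SE 0.33, adjusted p = 9.17e-05). For htr1b the levels were 0.542, 1.85 and 3.47 CPM, 10.01 and 5.15 CPM and 15.6, 21.4 and 18.6 CPM. Here the ebf3 libraries were the highest, and log2 fold change was -1.95 (SE 0.64, adjusted p = 0.0431) and -3.25 (SE 0.61, adjusted p = 0.00103); without wdr12 GFP-positive replicate 3 these were -2.70 and -3.95. The first of these calls was fragile: it was lost without any other single library apart from ebf3 replicate 3, with an adjusted p between 0.0591 and 0.361. For htr5a the levels were 1.73, 5.19 and 2.70 CPM, 28.1 and 25.1 CPM and 5.24, 16.7 and 7.16 CPM, highest in the GFP-negative sort. Log2 fold change of htr5a was -3.04 (SE 0.59, adjusted p = 0.00196) and -1.59 (SE 0.54, adjusted p = 0.0438). Without wdr12 GFP-positive replicate 2 it was -3.67 and -2.18, without ebf3 replicate 2 the second was -0.96, and the second call was lost without each of 5 libraries, with an adjusted p between 0.0781 and 0.281.

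Both dopamine receptor genes were lower than in GFP-negative cells and neither passed against ebf3 cells, where 1 passed without wdr12 GFP-positive replicate 1 or 3. The stimulatory receptor's gene drd1b had 0.867, 1.73 and 6.82 CPM in wdr12 GFP-positive libraries, 22.0 and 21.6 CPM in GFP-negative and 2.48, 4.01 and 11.5 CPM in ebf3 libraries, and the inhibitory receptor's gene drd2a had 2.82, 2.65 and 1.16 CPM, 19.4 and 13.7 CPM and 5.37, 5.48 and 8.66 CPM. The GFP-negative libraries were the highest for both, and drd1b in ebf3 cells overlapped with the wdr12 GFP-positive libraries. On the log2 scale the fold change was -2.80 (SE 0.78, adjusted p = 0.0186) and -0.93 (SE 0.71, adjusted p = 0.419) for drd1b, and -2.89 (SE 0.59, adjusted p = 0.00289) and -1.54 (SE 0.54, adjusted p = 0.0522) for drd2a. The first call of drd1b was lost without either GFP-negative library (adjusted p = 0.0988 and 0.0943) or without wdr12 GFP-positive replicate 2 (0.0574), and its value was -4.10 without wdr12 GFP-positive replicate 3. That of drd2a was lost without GFP-negative replicate 1 (0.0583).

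Of 4 adrenergic receptor genes, only adra2db, which encodes an inhibitory receptor, was lower, against both controls; against GFP-negative cells 2 genes were lower without ebf3 replicate 2 or 3 or wdr12 GFP-positive replicate 3. The levels of adra2db were 0.867, 5.88 and 1.42 CPM in wdr12 GFP-positive libraries, 16.5 and 19.4 CPM in GFP-negative and 10.9, 23.1 and 13.2 CPM in ebf3 libraries. Log2 fold changes were -2.71 (SE 0.67, adjusted p = 0.00901) and -2.52 (SE 0.62, adjusted p = 0.0073), or -4.05 and -3.82 without wdr12 GFP-positive replicate 2, and the first call ended with GFP-negative replicate 2 left out (adjusted p = 0.0646). The beta receptor genes, whose products raise cyclic AMP, had another order than most members. For adrb2a the levels were 3.25, 8.19 and 2.57 CPM, 11.5 and 15.5 CPM and 0.965, 0.535 and 4.66 CPM, and for adrb3a they were 4.12, 5.54 and 2.83 CPM, 17.2 and 20.8 CPM and 0.276, 0 and 3.66 CPM. Both were highest in GFP-negative libraries and lowest in an ebf3 library, with the wdr12 GFP-positive libraries mostly in between. Against ebf3 cells the log2 fold changes were 1.20 (SE 0.77, adjusted p = 0.317) and 1.71 (SE 0.93, adjusted p = 0.223), which did not pass. Without ebf3 replicate 3, the highest of that group, they were 2.62 for adrb2a and 4.78 for adrb3a and both passed (adjusted p = 0.0233 and 0.00159). Transcripts of adra1d were scarce, with 0, 0 and 0.515 CPM, 3.26 and 4.81 CPM and 0, 0.802 and 7.32 CPM, and passed in no comparison (-4.48 (SE 1.85, adjusted p = 0.108) against GFP-negative cells).

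The CB1 cannabinoid receptor, which curbs transmitter release, has 2 gene copies among the members, and their orders in the controls were opposite. For cnr1 the levels were 10.5, 15.1 and 22.1 CPM in wdr12 GFP-positive libraries, 68.3 and 67.3 CPM in GFP-negative and 47.8, 28.0 and 29.96 CPM in ebf3 libraries. For CNR1 (2 of 2) they were 11.3, 12.0 and 8.49 CPM, 8.05 and 5.84 CPM and 73.3, 38.5 and 32.6 CPM. The GFP-negative libraries were the highest for cnr1 and the lowest for CNR1 (2 of 2). Log2 fold change of cnr1 was -2.09 (SE 0.38, adjusted p = 0.00117) and -1.15 (SE 0.34, adjusted p = 0.023), with 0.94 (SE 0.37, adjusted p = 0.171) between the controls. That of CNR1 (2 of 2) was 0.61 (SE 0.44, adjusted p = 0.399) against GFP-negative cells, the only value above 0 among the members in that comparison, and -2.18 (SE 0.38, adjusted p = 0.000603) against ebf3 cells. The call of cnr1 against ebf3 cells was lost without ebf3 replicate 1 (adjusted p = 0.142) or without wdr12 GFP-positive replicate 1 (0.0503) or 2 (0.0533). OPRK1 (1 of 2), a kappa opioid receptor gene at no more than 7.90 CPM in any library, passed in no comparison, with log2 fold changes of -2.82 (SE 1.06, adjusted p = 0.0773) and -1.46 (SE 0.97, adjusted p = 0.34). The name match grid2ipa was lower at -2.23 (SE 0.70, adjusted p = 0.0361) and -2.66 (SE 0.66, adjusted p = 0.00768), or -3.52 and -3.90 without wdr12 GFP-positive replicate 2. Its first call was lost without each of the 4 other libraries of that comparison, at -1.58 without GFP-negative replicate 1, and its second without ebf3 replicate 2 (adjusted p = 0.0533).

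Summed over the 67 receptor genes, the level was 317, 499 and 943 CPM in the wdr12 GFP-positive libraries, 3778 and 3883 CPM in the GFP-negative libraries and 2825, 3128 and 2573 CPM in the ebf3 GFP-positive libraries. The sorts did not overlap. The mean of the GFP-negative libraries was 6.53 times, and that of the ebf3 libraries 4.84 times, the wdr12 GFP-positive mean; without wdr12 GFP-positive replicate 3 these were 9.38 and 6.96 times. Acetylcholine receptors had the widest gap between wdr12 sorts, at 9.64 times, followed by glycine at 7.58 and GABA at 7.28, and cannabinoid and opioid receptors had the smallest at 2.97. Without wdr12 GFP-positive replicate 3 the ratios were 13.9 for acetylcholine, 12.96 for glycine and 11.9 for GABA receptors, and against ebf3 cells those of glycine and GABA receptors went from 5.71 and 6.90 to 9.76 and 11.2 times. By contrast, the ratio of the control sorts to each other was 1.06 for GABA receptors and 2.43 for acetylcholine receptors. The latter was uneven over its 8 genes, whose log2 fold changes between the controls ran from -2.82 to 3.31, with 6 above and 2 below 0. Among them chrna2b was at 2.33 and chrnb3a at 0.16, so a few genes weigh heavily in this sum. The summed acetylcholine receptor level was 17.4, 34.8 and 61.0 CPM in wdr12 GFP-positive libraries, 361 and 367 CPM in GFP-negative and 138, 166 and 145 CPM in ebf3 libraries. In the GFP-negative libraries it made up 9.51% ± 0.07 (SD, n = 2) of all receptor CPM, against 5.29% ± 0.39 (n = 3) in ebf3 and 6.31% ± 0.75 (n = 3) in wdr12 GFP-positive libraries. GABA receptors made up 21.9% ± 3.1 in GFP-negative, 27.8% ± 2.4 in ebf3 and 18.9% ± 2.5 in wdr12 GFP-positive libraries, and glutamate receptors 58.9% ± 3.6, 57.6% ± 2.2 and 61.7% ± 0.97. The glutamate share of the GFP-negative libraries, at 56.3% and 61.5%, overlapped with both other sorts. With 3 libraries against 3, or 3 against 2, no exact permutation test of such a share can reach a two-sided p of 0.05. These sums depend on which receptors the authors listed, and long genes weigh more in them.

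**Figure D3:**
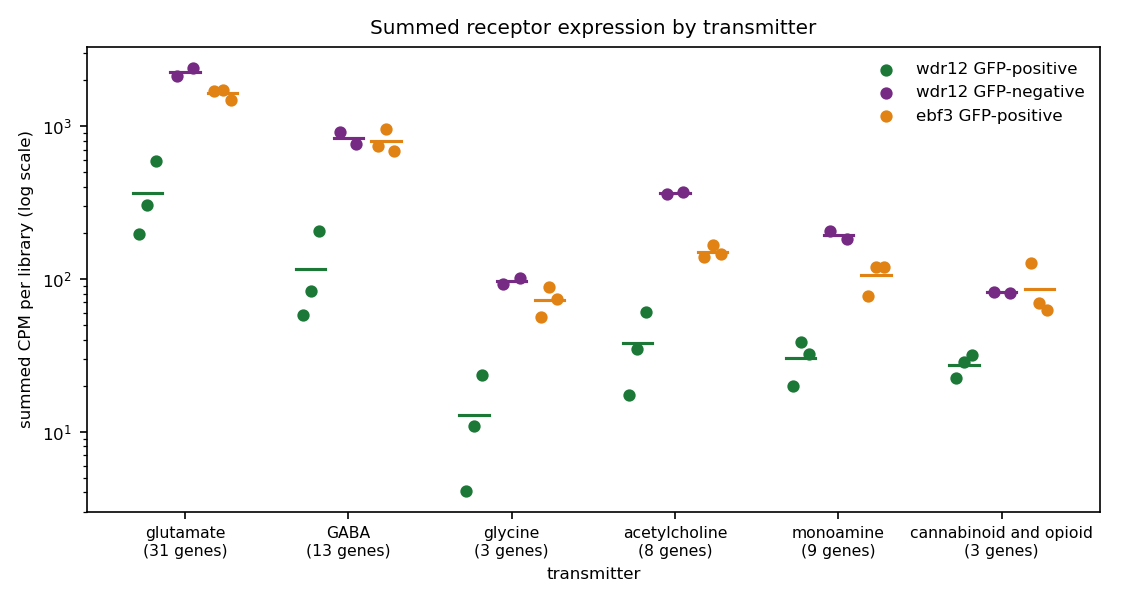
Receptor CPM summed by transmitter (x axis) in each library (points; log axis), with a line at the mean of each sort. For each of the 6 transmitter groups every wdr12 GFP-positive library lies below every control library. The GFP-negative sort exceeds the ebf3 sort 2.43 times in the acetylcholine receptor sum, which is uneven over its 8 genes (log2 fold changes from -2.82 to 3.31).

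The count of receptors called between the control sorts depended on the test. In the fit of all libraries, 4 of 67 receptors were higher and 1 was lower in GFP-negative cells, where 3.16% of all genes tested were higher and 1.96% lower, and 9.27% and 6.18% of genes with a symbol. So few calls lie near the background and are no result about receptors. With only these 2 sorts fitted, 19 of 68 members were higher, where 852 of 14106 genes tested were higher. For that fit no share over genes with a symbol was computed. In the fit of all libraries the higher receptors were chrna2b at 2.33 (SE 0.48, adjusted p = 0.0106), chrna6 (1 of 2) at 2.56 (SE 0.62, adjusted p = 0.0265), adrb3a at 3.89 (SE 1.01, adjusted p = 0.0374) and gabrr2b at 1.85 (SE 0.50, adjusted p = 0.0457). The lower gene was CNR1 (2 of 2) at -2.80 (SE 0.47, adjusted p = 0.00319). For gabrr2b the levels were 2.17, 4.61 and 2.70 CPM in wdr12 GFP-positive libraries, 22.8 and 23.5 CPM in GFP-negative and 6.61, 7.49 and 5.16 CPM in ebf3 libraries. None of the 5 calls passed with every library left out in turn. Those of chrna2b, chrna6 (1 of 2), adrb3a and gabrr2b were lost without either GFP-negative library, and without ebf3 replicate 2 (chrna2b, adrb3a and gabrr2b), 1 (chrna6 (1 of 2), adrb3a and gabrr2b) or 3 (chrna6 (1 of 2) and gabrr2b), with an adjusted p between 0.0518 and 0.303. The log2 fold change of adrb3a was 6.96 without ebf3 replicate 3 and that of chrna6 (1 of 2) was 3.21 without ebf3 replicate 2. CNR1 (2 of 2) lost its call only without GFP-negative replicate 2, at -2.58 (adjusted p = 0.0752). Over all receptors the median log2 fold change was 0.71, where genes with a symbol had 0.19. The libraries of the sorts did not overlap for 38 receptors that were higher and 5 that were lower in GFP-negative cells, against 21.9% and 19.5% of all genes tested. For genes with a symbol this share was not computed. At an unadjusted p under 0.05, 19 receptors were higher and 1 was lower, a threshold for which no share over all genes was computed. By the authors' deposited DESeq values for this comparison, 20 receptors were higher and 1 was lower at an adjusted p under 0.05. By their values for wdr12 GFP-positive cells, 60 were lower than in GFP-negative and 43 lower than in ebf3 GFP-positive cells, with 0 higher in either. The authors' sheets of changed genes, from which the 68 members were drawn, list 61 and 44 of them as lower in those comparisons. Between the controls the sheets list 16 members as higher and 1 as lower. The counts by the authors' values therefore largely restate how members were found and are no separate test of whether receptors differ. No share over all genes is given for those values.

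Markers of several other cell types moved with this comparison, and their part in it was not tested. All 5 microglia and leukocyte markers were higher in the GFP-negative than in the ebf3 sort (edgeR), with sums of 647 and 674 against 50.0 to 117 CPM. The sums of 7 oligodendrocyte lineage markers, 5 of them higher and 1 lower, were 4417 and 3071 against 198 to 780.2 CPM, and those of 9 radial glia and astroglia markers, 4 of them higher, were 8231 and 8389 against 3089 to 3256 CPM. Of 5 endothelium and mural cell markers 3 were higher and 0 lower, with a median log2 fold change of 1.93 and sums of 94.6 and 103 against 101 to 103 CPM. All 6 erythrocyte markers and all 3 plasma protein genes were higher too, the former at 26770.1 and 135749 against 323 to 838 CPM and the latter at 17164 and 15777 against 542 to 2673 CPM. Of 13 proliferating progenitor markers 0 were higher and 1 was lower, with a median log2 fold change of -0.35 and sums of 523 and 742 against 695 to 1039 CPM. No gene of these lists was at 0 in all libraries. The 14 mature neuron markers summed to 3691 and 4519.8 CPM in GFP-negative and to 4524 to 5979 CPM in ebf3 libraries, with 1 of them, elavl3, lower and 0 higher; at an unadjusted p under 0.05 there were 4 higher, and by DESeq2 there was 1.

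**Figure D4:**
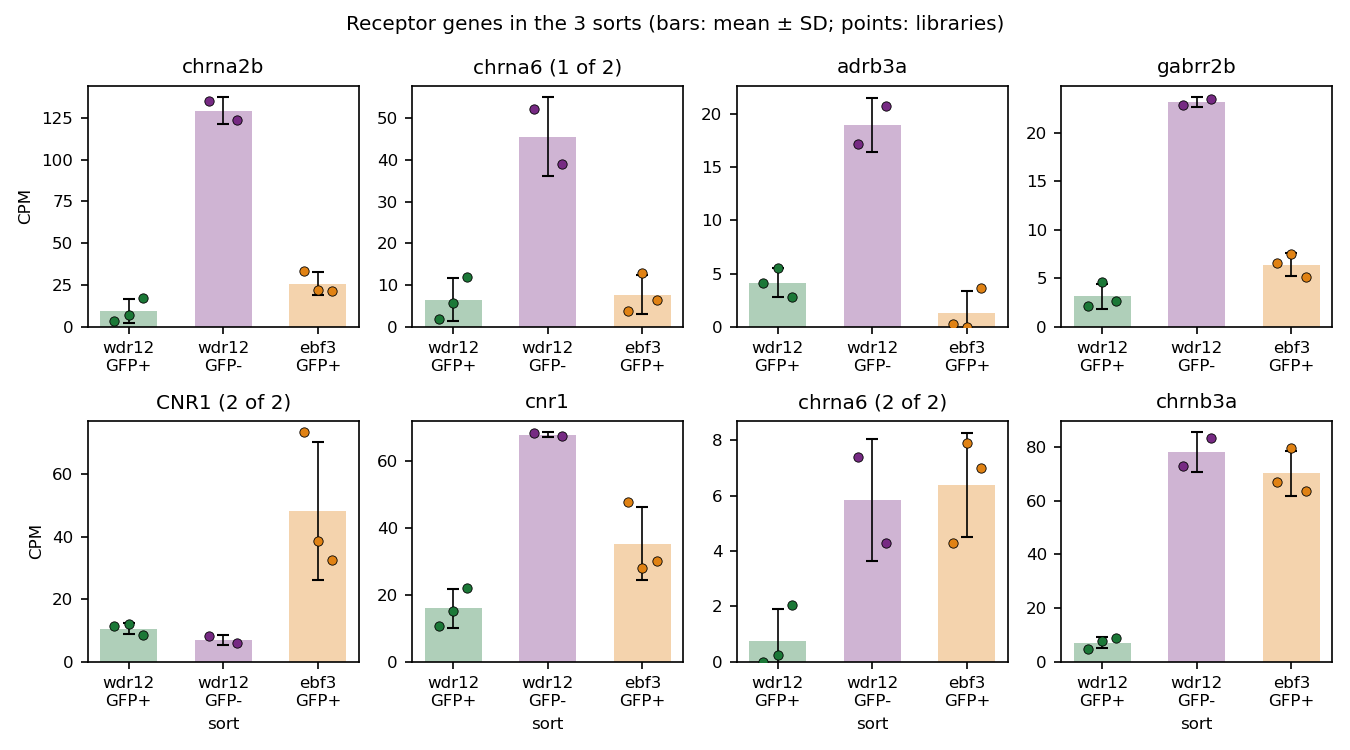
Level (CPM) of 8 receptor genes in the 3 sorts, with bars for the mean, error bars for the SD and points for libraries (n = 3, 2 and 3). Of these, chrna2b, chrna6 (1 of 2), adrb3a and gabrr2b are highest in GFP-negative libraries, CNR1 (2 of 2) in ebf3 libraries, and chrna6 (2 of 2) and chrnb3a are at like levels in both controls.

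Gene copies were compared within each library by the log2 ratio of their counts (0.5 added to each), a description chosen after the values had been seen. Among the members there are 18 such pairs from 36 genes. In 11 pairs, or 61.1%, the ratios of the GFP-negative and ebf3 GFP-positive libraries did not overlap, which is close to the 56.2% among all 368 pairs of named gene copies. With 2 libraries against 3, no exact permutation test can give a two-sided p below 0.2. The largest shift was that of CNR1 (2 of 2) to cnr1, with log2 ratios of -3.07 and -3.51 in GFP-negative libraries and 0.62, 0.46 and 0.12 in ebf3 libraries. In wdr12 GFP-positive libraries this ratio was 0.10, -0.33 and -1.38, between the controls. GABRA5 (1 of 2) to gabra5 had ratios of 1.95 and 1.91 in the GFP-negative and 7.21, 5.06 and 3.37 in the ebf3 sort (SD 1.93). The 7.21 rests on very few counts of gabra5 in ebf3 replicate 1 and on the 0.5 added. For chrna6 (1 of 2) to chrna6 (2 of 2) they were 2.80 and 3.16 against -0.20, 0.70 and -0.11, and for GRM2 (1 of 2) to GRM2 (2 of 2) 0.74 and 0.96 against -2.51, -1.10 and 0.16. At the other end, GRIK5 (1 of 2) to grik5, grin1a to grin1b and gria4a to gria4b differed between the control sorts by 0.04, 0.23 and -0.32 in mean log2 ratio, and their libraries overlapped.

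**Figure D5:**
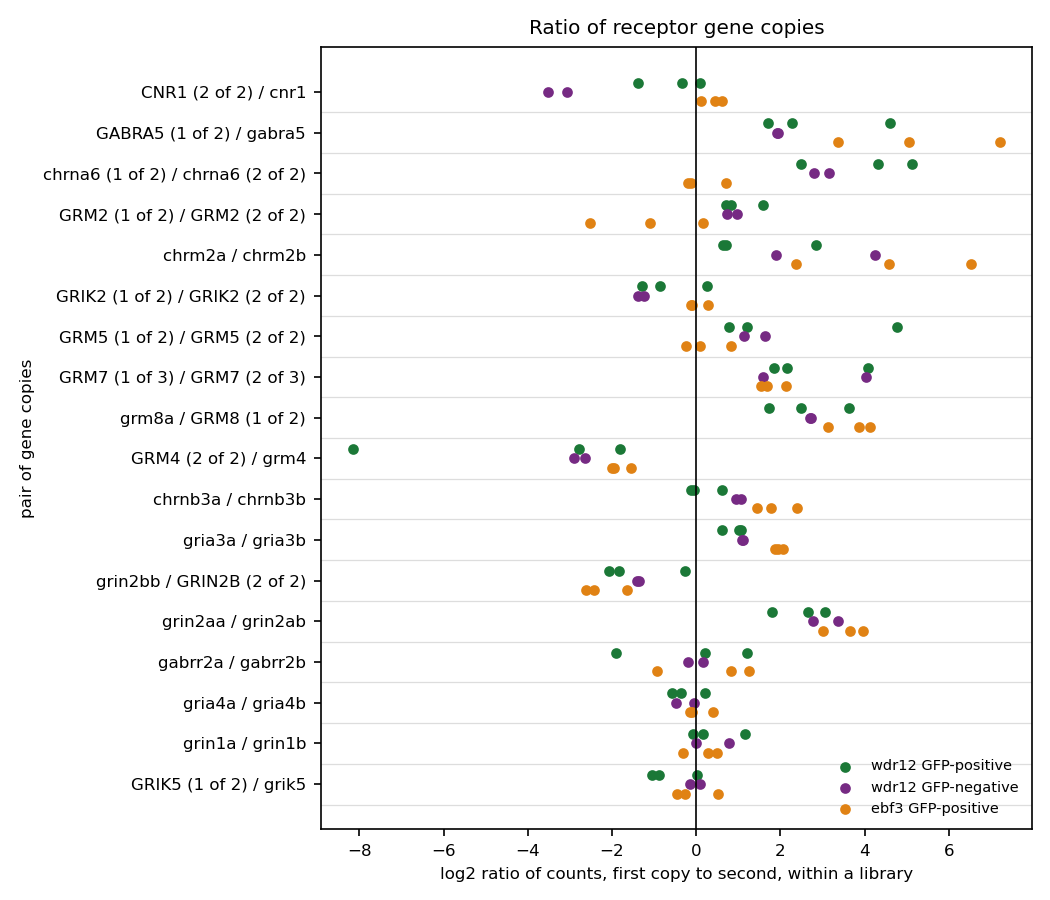
Log2 ratio of counts of 2 gene copies within each library (x axis) for 18 receptor pairs (rows, by the size of the difference between control sorts), with points for libraries. Control sorts lie apart at the top (CNR1, GABRA5 and chrna6 pairs) and overlap at the bottom; the place of a pair along the axis also depends on gene length and mapping.

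The wdr12 GFP-positive libraries differed among themselves in receptor level. The coefficient of variation of CPM had a median of 64.5% over receptors and 39.1% over all genes tested, against 14.8% and 22.0% in GFP-negative and 28.7% and 34.5% in ebf3 libraries. The GFP-negative values come from 2 libraries and the others from 3, so they are not directly comparable. Of 67 receptors, 56 were lowest in replicate 1 and 53 highest in replicate 3 of the wdr12 GFP-positive sort. For this order no share over all genes tested was computed, so it cannot be told from an order common to other genes. This is a description of these libraries, since genes of the same cells are not independent, and low counts widen the spread. Over the same replicates, 1 to 3 in order, the proliferating progenitor markers summed to 13164, 9588 and 7181 CPM, the mature neuron markers to 2699, 1589 and 2535 CPM, the erythrocyte markers to 129, 426 and 868 CPM and the plasma protein genes to 24440.0, 64605 and 106929 CPM; their part in the spread was not tested.

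Proteins that anchor, transport or relay receptor signals were taken as partner lists, again limited to genes with a symbol. Of 33 glutamate receptor partners, 32 were lower than in GFP-negative and 22 lower than in ebf3 GFP-positive cells, with median log2 fold changes of -2.25 and -1.64. Over all genes tested 9.84% and 10.8% were lower, and over genes with a symbol 30.7% and 31.8%. The count against GFP-negative cells was 17 without GFP-negative replicate 1 and 13 without its replicate 2. The count of all genes lower fell in those 2 fits too, each of which leaves that sort a single library. As with the members, the authors' listing limits what these counts can show. Examples were cbln2b, a cerebellin that bridges synapses, at -2.91 (SE 0.50, adjusted p = 0.000846) and -3.51 (SE 0.48, adjusted p = 9.45e-05) and FRRS1L, which takes part in AMPA receptor assembly, at -2.36 (SE 0.33, adjusted p = 0.000188) and -2.04 (SE 0.30, adjusted p = 0.000175). Of 16 GABA and glycine receptor partners, 13 and 11 were lower, or 9 to 16 and 9 to 11 with 1 library left out. They include gphnb, a copy of the scaffold gephyrin, at -2.52 (SE 0.41, adjusted p = 0.000547) and -2.14 (SE 0.38, adjusted p = 0.000672), arhgef9a, which encodes its partner collybistin, at -2.51 (SE 0.37, adjusted p = 0.000259) and -1.75 (SE 0.34, adjusted p = 0.00127), and SLITRK3 (1 of 2), an adhesion protein of inhibitory synapses, at -2.66 (SE 0.46, adjusted p = 0.00086) and -2.65 (SE 0.43, adjusted p = 0.000352). Without wdr12 GFP-positive replicate 3 the 2 log2 fold changes were -3.89 and -4.46 for cbln2b, -3.21 and -2.79 for gphnb and -3.57 and -3.52 for SLITRK3 (1 of 2).

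A partner with another pattern was SLC12A2 (1 of 2), a chloride importer that in immature neurons can make GABA excitatory. Its levels were 39.0, 24.7 and 58.7 CPM in wdr12 GFP-positive libraries, 108 and 90.8 CPM in GFP-negative and 4.00, 5.22 and 25.0 CPM in ebf3 libraries. Only 1 ebf3 library, replicate 3, overlapped with the wdr12 GFP-positive ones. On the log2 scale the fold change was -1.29 (SE 0.57, adjusted p = 0.138) against GFP-negative and 1.85 (SE 0.55, adjusted p = 0.022) against ebf3 cells, and it was higher in GFP-negative than in ebf3 cells at 3.14 (SE 0.60, adjusted p = 0.0071). The call against ebf3 cells was lost without ebf3 replicate 1 (adjusted p = 0.0923) or 2 (0.108) or without wdr12 GFP-positive replicate 3 (0.0739), and the value was 3.14 without ebf3 replicate 3. Between the controls the call was lost without GFP-negative replicate 1 (0.0554), and the value was 4.43 without ebf3 replicate 3.

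Of 28 G protein signalling partners, 20 and 19 were lower. Over all genes tested 9.84% and 10.8% were lower, and over genes with a symbol 30.7% and 31.8%. The first count fell without GFP-negative replicate 2, and so did the count of all genes lower. Among these partners were RGS7, a brake on G protein signalling, at -2.97 (SE 0.37, adjusted p = 0.000104) and -3.07 (SE 0.35, adjusted p = 2.5e-05) and the potassium channel gene KCNJ9 at -2.61 (SE 0.35, adjusted p = 0.000165) and -2.46 (SE 0.33, adjusted p = 7.61e-05). The inhibitory G protein gene GNAI2 was higher than in ebf3 cells, with 76.0, 48.1 and 73.1 CPM in wdr12 GFP-positive libraries, 70.5 and 84.0 CPM in GFP-negative and 13.4, 19.3 and 19.3 CPM in ebf3 libraries. Its wdr12 sorts overlapped at -0.23 (SE 0.32, adjusted p = 0.717), and against ebf3 cells it was at 1.92 (SE 0.30, adjusted p = 0.000265). Of 4 acetylcholine receptor partners, LYPD1 (2 of 2) was lower than in GFP-negative cells, at -2.98 (SE 0.86, adjusted p = 0.023), and agrn (agrin, which clusters acetylcholine receptors at the muscle synapse) and tmem35, whose product helps nicotinic receptors assemble in mammals, were lower than in ebf3 cells, at -1.15 (SE 0.33, adjusted p = 0.0182) and -0.81 (SE 0.27, adjusted p = 0.0411). LYPD1 (2 of 2) lost its call without either GFP-negative library (adjusted p = 0.141 and 0.107) and was at -3.61 without wdr12 GFP-positive replicate 3. The call of agrn was lost without ebf3 replicate 3 (0.0769), and that of tmem35 without each library apart from wdr12 GFP-positive replicates 1 and 2. Over all 80 partners, 65 and 53 were lower and 0 and 2 higher (edgeR, adjusted p under 0.05), with 0 higher than in GFP-negative cells at an unadjusted p under 0.05 or by DESeq2. Among all genes tested 9.92% and 12.7% were higher (edgeR), and among genes with a symbol 29.9% and 37.9%. By DESeq2, 2004 of 15640 genes were higher than in GFP-negative cells, and for the unadjusted threshold no such share was computed. Without either GFP-negative library, which leaves that sort a single library, fewer of all genes tested were called lower than in GFP-negative cells. With each library left out in turn, between 35 and 71 partners were lower than in GFP-negative cells and between 44 and 59 lower than in ebf3 cells; the lowest counts of the former, 35 and 39, came without GFP-negative replicates 2 and 1.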

How the data were processed

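RNA of sorted cells was made into libraries and sequenced as single reads of 50 bases. Per the submitters' processing notes, reads were handled with CASAVA 1.8.2, FastQC 0.10.1, TopHat2 and DESeq; for the counting program, the build and the gene models, the sources used here give no name. Deposited values were raw read counts per Ensembl gene; the authors' tables of comparisons also hold log2 fold changes and adjusted p-values, used here only for counts of members. The authors' sheets of changed genes gave the gene symbols and other text columns. Counts ran from 3497101 to 11580629 per library.

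Here edgeR 4.0.16 (R 4.3.3) was run on 15640 genes that passed its filter on low counts (filterByExpr), with TMM scaling, all 8 libraries in 1 quasi-likelihood fit (common biological coefficient of variation 0.514, 5 residual degrees of freedom) and Benjamini-Hochberg adjustment over all genes tested; calls were made at an adjusted p under 0.05. The standard error is the absolute log2 fold change divided by the square root of the quasi-likelihood F statistic, so it is derived from the test. Alternatives were DESeq2 1.42.0, other size factors, other filters, removal of erythrocyte genes, fits of only 2 groups, a replicate block, and each library left out. No other column of per-sample values was present.

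Members and lists were chosen with earlier results of these data known. Members given with values were, in each class, the up to 4 with the smallest adjusted p, the one with the most counts, and those past the threshold between the controls or higher in wdr12 GFP-positive cells; of each partner list, the 3 with the smallest adjusted p and those higher in wdr12 GFP-positive cells. A few genes that this rule picks are counted but not reported here. No sequence is shown.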

Additional observations from a re-analysis of the deposited data

How the results depend on the processing

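Of 68 members, 57 were lower than in wdr12 GFP-negative cells, and 56 to 63 were lower with other size factors, DESeq2, other filters, erythrocyte genes removed, only the 2 groups or a replicate block, with 0 higher in each; without 1 library the count ran from 39 to 59. Of all genes tested, 1539 of 15640 were lower than in wdr12 GFP-negative cells in the main fit. Under those other settings the count ran from 1466 of 15178 (only the 2 groups) to 1813 of 15640 (DESeq2). Against ebf3 GFP-positive cells 1688 of 15640 genes were lower, and 1480 of 13827 (only the 2 groups) to 1940 of 15640 (DESeq2) under those settings. Of the members, 44 were lower against ebf3 GFP-positive cells, 40 to 51 under those settings and 37 to 51 without 1 library. There, 0 were higher except 1, adrb3a, under the replicate block and 2, adrb2a and adrb3a, without ebf3 replicate 3, so the range without 1 library was 0 to 2. Between the controls the count of higher members, 4, was the least stable: 8 by DESeq2, 19 with only the 2 groups, 10 under the replicate block, and 0 to 11 without 1 library, with 0 without either wdr12 GFP-negative library and 11 without wdr12 GFP-positive replicate 1. The count of lower members there was 1, or 0 to 1 without 1 library. Of all genes tested, those higher between the controls were 494 of 15640 in the main fit and 791 of 15640 by DESeq2. They were 852 of 14106 with only the 2 groups, 819 of 15640 under the replicate block and 753 of 15552 without wdr12 GFP-positive replicate 1. The cause of these shifts was not tested. No member changed direction under a setting that kept it called. Under every alternative, 34 of 57, 31 of 44 and 0 of 5 calls were kept. The replicate block moved the median of all genes between the controls from 0.015 to 0.144. Same-numbered libraries did not deviate together (r from -0.24 to 0.21 over genes). The deviations of the 2 wdr12 GFP-negative libraries from their mean mirror each other, so this check cannot exclude a shared pool or day. The labels do not say whether the replicate numbers pair libraries. Under the block 63 members were lower than in wdr12 GFP-negative and 51 lower than in ebf3 GFP-positive cells. A choice of members by RefSeq symbols was not run, since the gene table at hand holds no Ensembl identifiers. The wdr12 GFP-negative sort has the fewest libraries and counts, which limits both comparisons that use it.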
